A study of Mus musculus with 6 samples.

Results

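The genes followed here mark the lining cells of blood vessels: Pecam1, Cdh5, Cd34, Cd93, Esam, Vwf, Emcn, Mmrn2, Egfl7 and Esm1. They were chosen by symbol, 10 out of 22173 gene symbols in the deposited files, as junction and surface markers of endothelium, and all 10 were found. The tissue was whole retina of wild-type C57BL/6J mouse pups at postnatal day 17, measured by RNA sequencing in 6 libraries. The 3 Control libraries came from pups that stayed in room air from postnatal day 7 to day 17. The 3 OIR libraries represent oxygen-induced retinopathy: those pups breathed 75% oxygen from day 7 to day 12 and room air again from day 12 to day 17. In this model, high oxygen closes the growing capillaries of the central retina, and the poorly perfused retina then drives abnormal vessel growth after the return to room air. No transgene or gene deletion is named for either group. The study was set up to find gene changes tied to abnormal vessel growth. Nothing in the labels ties the libraries of a group to separate animals or excludes pools, so the p-values measure the spread between these libraries, which may be technical.

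Endothelial cells line every vessel and are held together by junctions whose core adhesion molecule is VE-cadherin, the product of Cdh5, with PECAM-1 and ESAM as immunoglobulin-type partners at the same contacts. Their outer face carries mucin-like proteins such as CD34 and endomucin, and the lectin-like receptor CD93 binds the matrix protein multimerin-2. Endothelial cells also store von Willebrand factor and secrete EGFL7 and ESM1 (endocan), the last of which is known as a marker of tip cells, the leading cells of vessel sprouts. In a normal retina these cells are a small share of the tissue, so their genes give low values in whole-retina RNA.

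Levels are given in RPKM, read numbers scaled to gene length and library depth, so that levels of different genes can be compared. All 10 genes were higher in OIR than in Control. The plain ratio of the group means ran from 1.35 for Esam and 2.08 for Egfl7 to 4.37 for Cd93 and 37.7 for Esm1. The test was limma on log2(RPKM + 1), run on the 12112 genes with at least 1 RPKM in at least 3 libraries, with p adjusted over all of them and a threshold of 0.05. Of these 12112 genes, 18.8% were called in either direction and 11.6% were called higher in OIR. A call together with a ratio of at least 2 held for every member except Esam, beside 1.99% of tested genes. Mmrn2 and Esm1 entered this test only through their OIR values, since no Control library reached 1 RPKM for either gene, so they are not counted as support. The other 8 members were at or above 1 RPKM in all 6 libraries, and all 8 were called higher, where 10.9% of the 11506 genes of that kind were. With no filter on low values, all 10 were called higher, beside 6.73% of 17953 genes. The 3 OIR values lay above the 3 Control values in all 10 members, as in 23.6% of the tested genes. The median log2 fold change of the 10 was 1.12, beside 0.03 for all tested genes. The members and the other gene lists were chosen with earlier results of these data known. Their shares of calls therefore describe these genes and are not independent support. Whole retina was sequenced, so a change in the number of endothelial cells and a change in RNA per cell cannot be told apart.

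**Figure D1:**
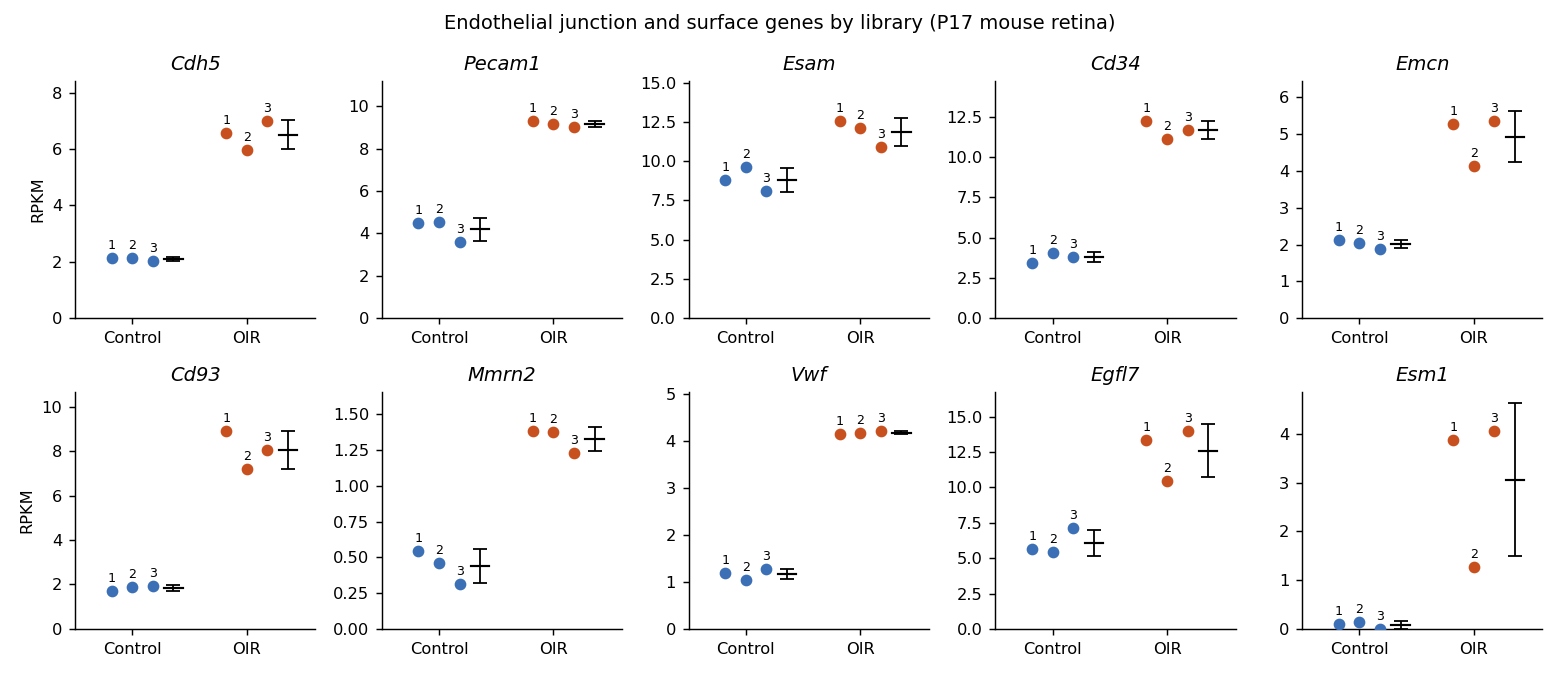
RPKM (y axis, starting at 0) of the 10 genes in the 3 Control libraries (blue) and the 3 OIR libraries (orange), numbered 1 to 3 by library, with the mean and SD as a bar beside the points. In every panel the OIR points lie above the Control points, with the smallest gap for Esam and the widest OIR spread for Esm1, where OIR 2 is at 1.26 RPKM.

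The recovered depth was 35615501 to 38025624 reads per library, a ratio of 1.07 between the deepest and the shallowest. Genes of the eye lens, which is not part of the retina, took 6.29% of the reads in Control 3, 0.551% in OIR 2 and 0.0147% to 0.0577% in the other 4 libraries. Retinal genes were high in every library: the summed level of 17 markers of retinal neurons and Müller glia was 13528 to 16362 RPKM in Control and 15790 to 16216 RPKM in OIR. Over all genes tested, 7.22% were called lower in OIR. The share of higher genes among all calls was 61.7%, but it came to 49.4% under median-of-ratios scaling, 47.6% under upper-quartile scaling and 51.6% with lens genes taken out of the total. Under each of these scalings all 10 members were called higher, beside 1283, 1233 and 1339 of the 12112 tested genes, in that order. All 10 were also called higher without the 2 lens-rich libraries, Control 3 and OIR 2, beside 2094 of 12112 genes. These counts include Mmrn2 and Esm1, which entered the test only through their OIR values.

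All 3 junction genes were higher in OIR, Cdh5 by the largest factor and Esam by the smallest. Cdh5, the gene of VE-cadherin, was at 2.14, 2.14 and 2.02 RPKM in Control 1 to 3 and at 6.57, 5.96 and 7.01 RPKM in OIR 1 to 3. The Control libraries lay close together, with a coefficient of variation of 3.30%, and the lowest OIR value was 2.78 times the highest Control value. The log2 fold change on the log2(RPKM + 1) scale was 1.27 (SE 0.082, 95% interval 1.09 to 1.45, limma adjusted p = 1.61e-05). Between 291 and 1076 reads per library lay behind these values.

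Pecam1, the gene of the adhesion protein PECAM-1 (CD31), was at 4.48, 4.51 and 3.57 RPKM in Control 1 to 3 and at 9.32, 9.15 and 9.03 RPKM in OIR 1 to 3. The OIR libraries lay close together, with an SD of 0.147 RPKM beside 0.536 in Control, where Control 3 was lowest. On the same scale Pecam1 changed by 0.98 (SE 0.088, 95% interval 0.78 to 1.17, limma adjusted p = 0.000149).

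Esam, the gene of the endothelial cell-selective adhesion molecule, had the highest level of the 10 in Control and the smallest change. It was at 8.77, 9.60 and 8.07 RPKM in Control 1 to 3 and at 12.6, 12.1 and 10.9 RPKM in OIR 1 to 3. The groups did not overlap, but the lowest OIR value was only 1.14 times the highest Control value. Esam changed by 0.39 on that log2 scale (SE 0.083, 95% interval 0.21 to 0.57, limma adjusted p = 0.0112). Without OIR 1 the call of Esam ended, at a log2 fold change of 0.35 and a limma adjusted p of 0.0604.

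Of the mucin-like surface proteins, Cd34, whose product is also found on blood stem cells, was at 3.45, 4.06 and 3.80 RPKM in Control 1 to 3 and at 12.3, 11.1 and 11.7 RPKM in OIR 1 to 3. Both groups were tight, with coefficients of variation of 8.22% in Control and 4.91% in OIR. Cd34 had a log2 fold change of 1.41 (SE 0.079, 95% interval 1.24 to 1.59, limma adjusted p = 7.34e-06). Emcn, the gene of endomucin, which is known from capillary and venous endothelium, was at 2.11, 2.03 and 1.88 RPKM in Control 1 to 3 and at 5.28, 4.13 and 5.36 RPKM in OIR 1 to 3. OIR 2 was the lowest OIR library for both genes, and its Emcn value was still 1.95 times the highest Control value. The log2 fold change of Emcn was 0.97 (SE 0.098, 95% interval 0.75 to 1.19, limma adjusted p = 0.000289).

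Cd93 had the largest change among the 8 genes measured above 1 RPKM in every library. Cd93, the gene of a C-type lectin receptor, was at 1.71, 1.86 and 1.95 RPKM in Control 1 to 3 and at 8.90, 7.19 and 8.05 RPKM in OIR 1 to 3. The lowest OIR value was 3.70 times the highest Control value. Cd93 had a log2 fold change of 1.67 (SE 0.089, 95% interval 1.47 to 1.86, limma adjusted p = 7.34e-06). Mmrn2, the gene of its ligand multimerin-2, was much lower, at 0.547, 0.459 and 0.314 RPKM in Control 1 to 3 and at 1.38, 1.37 and 1.23 RPKM in OIR 1 to 3. Its Control values rested on 44 to 80 reads per library and its OIR values on 184 to 201. The ratio of its group means was 3.02, and its log2 fold change was 0.70 (SE 0.095, limma adjusted p = 0.00144), a value reduced by the added 1 RPKM, since it was 1.43 with an added 0.1 RPKM.

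Vwf, the gene of von Willebrand factor, which tethers platelets to injured vessels, was at 1.19, 1.04 and 1.26 RPKM in Control 1 to 3 and at 4.15, 4.17 and 4.20 RPKM in OIR 1 to 3. The OIR libraries were nearly equal, with a coefficient of variation of 0.619% on 1364 to 1427 reads each. Counting error was not computed for Vwf, so the closeness of 3 libraries is not evidence of low variation. The same limit applies to Cdh5 in Control and Pecam1 in OIR. Vwf had a log2 fold change of 1.26 (SE 0.081, 95% interval 1.08 to 1.44, limma adjusted p = 1.61e-05), and the ratio of the means was 3.57.

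Both secreted factors were higher in OIR. Egfl7, the gene of a secreted EGF-like protein of vessel walls, was at 5.62, 5.44 and 7.14 RPKM in Control 1 to 3 and at 13.3, 10.5 and 14.0 RPKM in OIR 1 to 3. Control 3 was its highest Control library, as for Cd93 and Vwf, whereas it was the lowest for Pecam1, Esam, Cdh5, Emcn, Mmrn2 and Esm1. The log2 fold change of Egfl7 was 0.94 (SE 0.12, 95% interval 0.67 to 1.21, limma adjusted p = 0.00129).

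Esm1, the gene of endocan, was close to undetected in Control. It was at 0.102 RPKM in Control 1, on 8 reads, at 0.141 RPKM in Control 2, on 11 reads, and at 0 in Control 3, where a count of 0 allows up to 0.0400 RPKM (3 reads). In OIR it was at 3.87, 1.26 and 4.05 RPKM in OIR 1 to 3, on 301, 97 and 324 reads. The exact 95% Poisson interval, which covers counting error only, was 1.02 to 1.54 RPKM in OIR 2 and 3.45 to 4.34 RPKM in OIR 1, so OIR 2 lay below the other OIR libraries by more than counting error. Even so, OIR 2 was 8.93 times the highest Control library. Esm1 had a log2 fold change of 1.82 (SE 0.34, 95% interval 0.96 to 2.68, limma adjusted p = 0.0237). This call ended without Control 1 (1.84, adjusted p = 0.0984), Control 2 (1.86, 0.0849), OIR 1 (1.65, 0.0910) or OIR 3 (1.62, 0.0812). It also ended with limma-voom on recovered reads, at a log2 fold change of 5.84 and an adjusted p of 0.0634. The size of the change depended on the added value, since it was 4.06 with an added 0.1 RPKM.

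**Figure D2:**
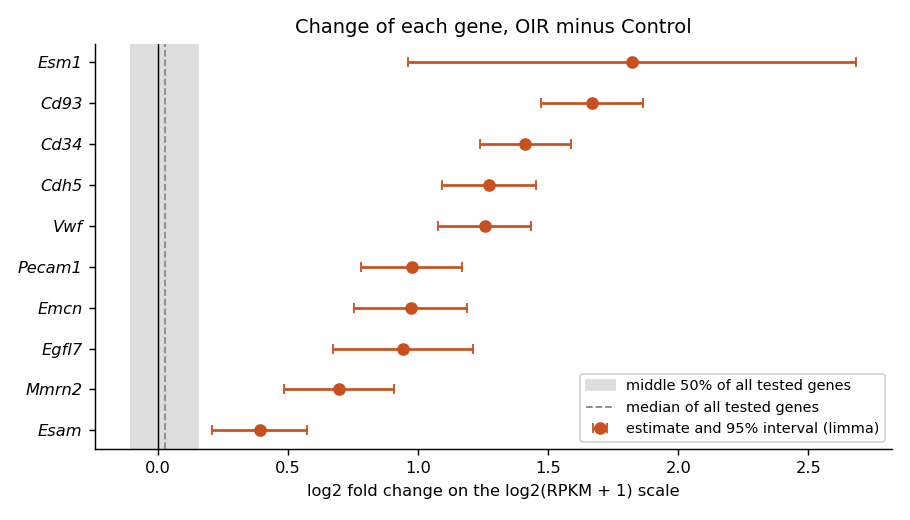
Log2 fold change of each gene, OIR minus Control, on the log2(RPKM + 1) scale (x axis) with its 95% limma interval, beside the median (dashed line) and middle 50% (grey) of the 12112 tested genes. All 10 intervals lie above 0, from Esam at 0.39 to Esm1 at 1.82, whose interval is the widest.

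OIR 2 was the lowest of the 3 OIR libraries for 6 of the 10 members, Cdh5, Cd34, Cd93, Emcn, Egfl7 and Esm1. OIR 3 was the lowest for Pecam1, Esam and Mmrn2, and OIR 1 for Vwf. Over all 1407 genes called higher, OIR 2 was the lowest OIR library in 81.0%. It was the lowest for all 15 tested tip-cell genes, for 13 of 14 tested microglia and macrophage markers, and for 9 of 17 other endothelial surface genes.

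The order of the genes by level changed between the groups. In Control the mean fell from Esam, at 8.81 RPKM, through Egfl7 (6.07), Pecam1 (4.19), Cd34 (3.77), Cdh5 (2.10), Emcn (2.01), Cd93 (1.84), Vwf (1.17) and Mmrn2 (0.440) to Esm1 (0.0811). Of these neighbours, the Control values of Pecam1 and Cd34, of Cdh5 and Emcn, and of Emcn and Cd93 overlapped. In OIR the order was Egfl7, at 12.6 RPKM, Esam (11.9), Cd34 (11.7), Pecam1 (9.17), Cd93 (8.05), Cdh5 (6.51), Emcn (4.92), Vwf (4.17), Esm1 (3.06) and Mmrn2 (1.33). There the values of Egfl7 and Esam, of Esam and Cd34, of Emcn and Vwf, and of Esm1 and Mmrn2 overlapped. Cd93 moved past Emcn and Cdh5, and Cd34 past Pecam1, and in OIR neither Cd34 and Pecam1 nor Cd93 and Cdh5 overlapped.

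**Figure D3:**
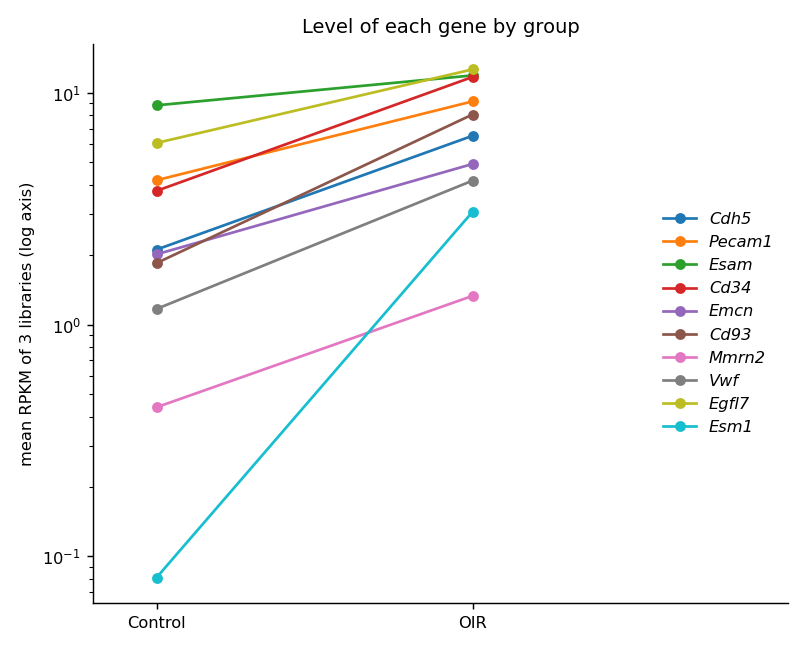
Mean RPKM of 3 libraries (log axis) for each gene in Control and in OIR, joined by a line. The lines spread in Control from 0.0811 RPKM for Esm1 to 8.81 for Esam and are closer together in OIR, from 1.33 for Mmrn2 to 12.6 for Egfl7.

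To ask whether the members rose by the same factor, each was set against Cdh5 in the same library. The value per library was log2(RPKM + 0.1) minus that of Cdh5, and the same limma test was run over 12111 genes. Because Cdh5 itself rose, 97.7% of these genes had a smaller change than Cdh5 and 0.297% a larger one, so adjustment over all genes hardly alters a p-value here. All 9 differences also share the Cdh5 values as their reference. The same holds for all 12111 genes, so their errors are shared, whereas limma pools the spread over genes as if they were separate. For Esam the limma adjusted p became smaller with a library left out, at 1.32e-18 without OIR 1. The p-values of this comparison may therefore be too small and its intervals too narrow.

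Esam fell furthest behind Cdh5. There were 4.09, 4.48 and 3.99 units of Esam per unit of Cdh5 in Control 1 to 3, and 1.92, 2.03 and 1.55 in OIR 1 to 3. The log2 change of this ratio was -1.16 (SE 0.11, 95% interval -1.39 to -0.93, limma adjusted p = 6.31e-10). Egfl7, at -0.54 (limma adjusted p = 0.000274), Pecam1, at -0.46 (0.000584), and Emcn, at -0.34 (0.0148), also rose by less than Cdh5. For all 4 genes the ratios to Cdh5 in OIR lay below those in Control. The difference of Emcn ended without Control 1, at an adjusted p of 0.0547 and a log2 change of -0.32.

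Cd93 rose by more than Cdh5. Its ratio to Cdh5 was 0.799, 0.869 and 0.961 in Control 1 to 3 and 1.35, 1.21 and 1.15 in OIR 1 to 3, a log2 change of 0.48 (95% interval 0.22 to 0.74, limma adjusted p = 0.000846). Esm1 had a log2 change of 2.47 against Cdh5 (95% interval 1.28 to 3.67, adjusted p = 0.00220). With a library at 0 reads this size depended on the added value, and with an added 0.01 RPKM it was 3.99 (adjusted p = 0.0343). Its ratio was 0 to 0.0658 in Control, and it was 0.590 in OIR 1, 0.211 in OIR 2 and 0.578 in OIR 3.

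Cd34, Vwf and Mmrn2 did not pass in this comparison. The log2 change against Cdh5 was 0.03 for Cd34 (95% interval -0.21 to 0.26, adjusted p = 0.825), 0.17 for Vwf (-0.13 to 0.48, 0.250) and -0.16 for Mmrn2 (-0.60 to 0.29, 0.481). The interval of Cd34 is narrow around 0, while that of Mmrn2 is wide. With Pecam1 as the reference in place of Cdh5, 5 members had a larger change, Cdh5, Cd34, Cd93, Vwf and Esm1, and Esam alone a smaller one. The share of all genes called against Pecam1, which itself rose, is not given here, so these counts have no background beside them. Emcn and Egfl7 did not pass against Pecam1, at log2 changes of 0.13 (adjusted p = 0.396) and -0.08 (0.708).

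**Figure D4:**
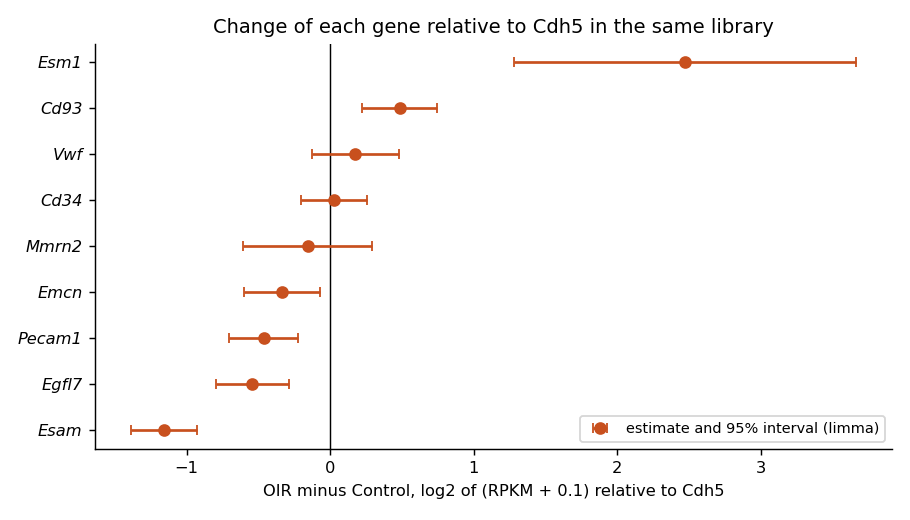
Change of each gene relative to Cdh5 in the same library, OIR minus Control, as log2 of (RPKM + 0.1) (x axis) with 95% limma intervals. Esam, Egfl7, Pecam1 and Emcn lie below 0, Cd93 and Esm1 above it, and the intervals of Mmrn2, Cd34 and Vwf cross it.

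Promoter windows in RefSeq (build GRCm38.p6) were matched by symbol for 4 of the 10 members, with 6 windows in all. They are shown because endothelial genes are known to be read by ETS transcription factors and several vessel genes by the hypoxia factor HIF. Each is the 250 bases before an annotated start on the + strand, 5′ to 3′. Capitals mark AGGAAG or CGGAAG, cores bound by ETS factors, and ACGTG or GCGTG, cores bound by HIF, searched on both strands, so that the reverse complement is capitalised too. The build of the deposited files is not given in the sources used here, and these windows were matched by symbol and not by position. The windows are Cd34 (chr1:194938571-194938820), Egfl7 (chr2:26580833-26581082), Emcn (chr3:137340828-137341077) and Esm1 (chr13:113209409-113209658).
Cd34: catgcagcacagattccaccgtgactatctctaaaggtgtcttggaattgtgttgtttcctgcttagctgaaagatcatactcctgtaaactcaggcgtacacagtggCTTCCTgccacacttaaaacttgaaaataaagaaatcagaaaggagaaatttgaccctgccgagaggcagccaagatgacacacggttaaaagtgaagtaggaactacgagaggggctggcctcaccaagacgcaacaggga
Egfl7: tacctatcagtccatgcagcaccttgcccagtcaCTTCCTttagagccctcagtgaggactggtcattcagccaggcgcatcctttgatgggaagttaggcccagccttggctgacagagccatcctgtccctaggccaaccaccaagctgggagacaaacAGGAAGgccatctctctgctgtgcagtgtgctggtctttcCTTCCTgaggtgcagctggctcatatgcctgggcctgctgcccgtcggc
Emcn: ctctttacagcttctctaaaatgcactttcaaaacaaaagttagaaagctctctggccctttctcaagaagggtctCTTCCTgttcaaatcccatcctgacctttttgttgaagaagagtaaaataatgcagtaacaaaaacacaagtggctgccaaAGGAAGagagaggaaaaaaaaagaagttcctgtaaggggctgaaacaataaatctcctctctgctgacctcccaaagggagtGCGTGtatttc
Esm1: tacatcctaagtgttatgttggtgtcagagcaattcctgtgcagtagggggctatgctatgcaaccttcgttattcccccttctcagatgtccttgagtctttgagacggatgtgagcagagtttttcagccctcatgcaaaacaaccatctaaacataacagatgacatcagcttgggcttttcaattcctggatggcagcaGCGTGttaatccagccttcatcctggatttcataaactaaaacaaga
The Cd34 window holds 1 ETS core, which starts 142 bases before the start site. The Emcn window holds 2 ETS cores and 1 GCGTG, which starts 11 bases before the start site. The Esm1 window holds none of the ETS letters and 1 GCGTG, 47 bases before the start site. The Egfl7 window shown holds 3 ETS cores, and the windows of the other two annotated starts of Egfl7 hold 1 and 0. An ETS core of these letters is in 39.2% of 32851 such windows and a HIF core in 38.6%, so a match is common, and it describes the letters only.

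Of a list of 22 relatives and binding partners of the members, 14 were tested, 6 were higher, none was lower and 8 did not pass. The 6 were 42.9% of those tested, beside 11.6% of all tested genes, and of the 12 at the minimum in all 6 libraries 4 were higher, beside 10.9%. The list had a median log2 fold change of 0.20 beside 0.03 for all tested genes. Clec14a, a CD93 relative that also binds multimerin-2, rose from 0.748 ± 0.0205 to 1.45 ± 0.190 RPKM (SD, n = 3 each, limma adjusted p = 0.00717). Cd248, another gene of the CD93 family, known from pericytes and fibroblasts, rose from 0.836 ± 0.217 to 4.69 ± 1.14 RPKM (limma adjusted p = 0.000389). Angpt2, whose product is stored with von Willebrand factor, was at 2.41, 1.82 and 2.02 RPKM in Control 1 to 3 and 6.13, 4.06 and 8.92 in OIR 1 to 3 (limma adjusted p = 0.0248), a call that ended without Control 1, Control 2 or OIR 1, at 0.0762, 0.0914 and 0.115. No Control library reached 1 RPKM for Clec14a or Cd248, which entered the test through their OIR values.

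Podxl, the CD34 relative podocalyxin, rose from 42.4 ± 4.85 to 57.0 ± 4.92 RPKM (limma adjusted p = 0.0122), and its relative Podxl2 was at 96.1 ± 0.967 and 99.7 ± 5.19 RPKM, which did not pass (95% interval of the log2 fold change -0.09 to 0.19). The call of Podxl ended without OIR 1, at an adjusted p of 0.0613. Of the JAM junction proteins, which are relatives of ESAM, Jam2 was at 44.5 ± 4.03 and 45.3 ± 0.871 RPKM, with a log2 fold change of 0.03 that turned to -0.01 with median-of-ratios scaling, and Jam3 was at 7.85 ± 0.782 and 9.07 ± 0.634 RPKM. F11r rose from 2.41 ± 0.140 to 3.41 ± 0.683 RPKM at an adjusted p of 0.0454, which became 0.0687 under median-of-ratios scaling, and the call also ended without Control 1, Control 2, Control 3 or OIR 3, at 0.144, 0.0960, 0.0775 and 0.172. Cxadr, of the same family, was at 4.82 ± 0.263 and 4.45 ± 0.111 RPKM and did not pass.

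The catenins link VE-cadherin and other cadherins to the cytoskeleton in all cell types. Ctnna1 rose from 30.8 ± 0.487 to 37.9 ± 3.34 RPKM (limma adjusted p = 0.0227), a call that ended without Control 1, Control 2, OIR 1 or OIR 3, at 0.0654 to 0.107. Ctnnb1 was at 135.6 ± 5.10 RPKM in Control and 130.2 ± 3.09 in OIR, Ctnnd1 at 5.30 ± 0.161 and 6.28 ± 0.139, and Jup at 9.85 ± 0.764 and 11.1 ± 0.705, none past the threshold. Ptprb, the VE-cadherin-associated phosphatase, was at 1.53 ± 0.336 and 1.90 ± 0.0611 RPKM and did not pass. The rest of the list, which includes Thbd, Mmrn1, Egfl8, Pcdh12, Adamts13, F8 and Selp, was below the minimum for testing. Of these, Pcdh12, an endothelial protocadherin, was at 0.208 ± 0.0355 and 0.982 ± 0.251 RPKM and passed with no filter (limma adjusted p = 0.0132).

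Of a list of 20 other endothelial surface genes, 17 were tested, 12 were higher, none was lower and 5 did not pass. The 12 were 70.6% of those tested, beside 11.6% of all tested genes. Of the 13 that reached 1 RPKM in all 6 libraries, 8 were higher, beside 10.9%. Ecscr, an endothelial surface protein, rose from 0.933 ± 0.242 to 3.37 ± 0.108 RPKM (limma adjusted p = 0.00011), Tie1, a receptor of the angiopoietin system, from 1.56 ± 0.189 to 4.70 ± 0.563 RPKM (0.000111), and Eng, the TGF-beta co-receptor endoglin, from 4.41 ± 0.298 to 12.2 ± 2.40 RPKM (0.000356). The 5 that did not pass were Tek, Flt1, Flt4, Plvap and S1pr1, named after their values were seen. S1pr1, a lipid receptor of endothelium and other cells, was at 14.6, 16.4 and 12.5 RPKM in Control 1 to 3 and 12.2, 11.9 and 8.86 in OIR 1 to 3. Its limma adjusted p was 0.0698, and its groups did not overlap, as in 15% of tested genes with OIR below. Flt1, Flt4 and Plvap did not overlap either, with OIR above, as in 23.6% of tested genes. Their limma adjusted p was 0.103, 0.0603 and 0.123. The groups of Tek overlapped.

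Of 16 tip-cell genes, 15 were tested and 13 were higher, beside 11.6% of all tested genes. Of the 10 at the minimum in all 6 libraries, 8 were higher, beside 10.9% of all such genes. Esm1 is commonly counted with them, and the laminin gene Lama4, at 1.24 ± 0.205 and 4.23 ± 0.553 RPKM, the growth factor gene Pdgfb, at 0.843 ± 0.116 and 2.95 ± 0.497 RPKM, and the chemokine receptor gene Cxcr4, at 0.994 ± 0.140 and 3.01 ± 0.461 RPKM, had the smallest adjusted p of that list, 0.000119 to 0.000306. Pdgfb was below 1 RPKM in all Control libraries and entered the test through its OIR values.

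Several members are also made by cells other than endothelium, so markers of those cells are given. Platelets carry Pecam1, Vwf and Esam products. Of 12 platelet and megakaryocyte markers Ppbp, Gp6 and Treml1 were among those at 0 in all libraries, the summed level was 4.75 to 5.41 RPKM in Control and 5.74 to 7.04 in OIR, and most of it was Gp1bb, at 4.42 ± 0.345 and 4.22 ± 0.859 RPKM. Pf4, which macrophages also make, was at 0.217 ± 0.0294 RPKM in Control and 1.08 ± 0.267 in OIR (limma adjusted p with no filter = 0.0108). Itgb3, an integrin gene that endothelium also expresses, was at 0.132 ± 0.0462 and 0.441 ± 0.101 RPKM (limma adjusted p with no filter = 0.0225). Neither gene overlapped between the groups, with OIR above, which held for 23.6% of tested genes. Pf4 and Itgb3 were themselves too low to test, and the share among untested genes was not computed. Clec1b, also not tested, was lower in OIR, at 0.0616 ± 0.0660 and 0.00749 ± 0.0130 RPKM, on 8 and 1 reads. Its groups did not overlap, beside 15% of tested genes with OIR below. Gp5 was lower too, at 0.0616 ± 0.0318 and 0.0368 ± 0.0129 RPKM. Neither Clec1b nor Gp5 passed with no filter (limma adjusted p = 0.322 and 0.499). Myeloid cells carry PECAM-1 and CD93. The summed level of 16 microglia and macrophage markers was 38.2 to 43.5 RPKM in Control and 110.6 to 150.8 in OIR. Of these markers, 12 of 14 tested were higher, beside 11.6% of all tested genes. Of the 12 at the minimum in all 6 libraries, 11 were higher, beside 10.9% of all such genes. C1qa, Tyrobp and Laptm5 had the smallest adjusted p. P2ry12 and Tmem119 did not pass (limma adjusted p = 0.173 and 0.233). Of 12 markers of other leukocytes none reached the minimum for testing, and the sum was 0.234 to 0.648 RPKM in Control and 0.813 to 3.50 in OIR. Ly6g was at 0 in all libraries, whereas the neutrophil genes S100a8, S100a9 and Ngp were at 0 in Control and above 0 in every OIR library, S100a9 at 0.568, 0.0521 and 1.51 RPKM in OIR 1 to 3. S100a8, S100a9 and Ngp rested on 10, 42 and 4 OIR reads and did not pass with no filter (limma adjusted p = 0.0608, 0.203 and 0.202). Cd3e and Nkg7 had 1 read each, both in Control. Cd8a, at 0.120 to 0.359 RPKM in Control and 0.532 to 0.975 in OIR, did not overlap between the groups either, beside 23.6% of tested genes with OIR above. It did not pass with no filter (limma adjusted p = 0.0636).

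Of the 11 pericyte and smooth muscle markers, 10 were tested and 6 were higher, beside 11.6% of all tested genes. Rgs5, Pdgfrb and Notch3 had the smallest adjusted p. Of the 5 at the minimum in all 6 libraries, 4 were higher, beside 10.9% of all such genes. Notch3 was not among the 5, since it was below 1 RPKM in all Control libraries. Acta2, Tagln and Myh11, contractile genes of smooth muscle, did not pass, at limma adjusted p of 0.483, 0.309 and 0.472. The list summed to 356.9 to 407.9 RPKM in Control and 425.4 to 504.2 in OIR, mostly through Vtn, at 335.7 ± 32.2 and 383.8 ± 29.5 RPKM, which did not pass (0.1497). The haemoglobin and other red cell genes summed to 47.3 to 55.8 RPKM in Control and 84.3 to 158.1 in OIR. All 4 tested were higher, beside 11.6% of all tested genes. However, without OIR 1 the calls of Hba-a1, Hba-a2 and Hbb-bt ended, at limma adjusted p of 0.104, 0.0649 and 0.172. Leaving out Control 1 or Control 2 ended the calls of Hba-a1 (0.101, 0.0860) and Hbb-bt (0.153, 0.0925) too. Hba-a1 also lost its call without OIR 3 (0.0707), and Hbb-bt without Control 3 (0.0765). Connective tissue markers, some of whose cells carry CD34, summed to 8.87, 16.6 and 23.9 RPKM in Control 1 to 3 and 17.6 to 26.8 in OIR. Of 6 tested, 2 were higher, Pdgfra and Col3a1, beside 11.6% of all tested genes. The call of Col3a1 ended without OIR 1, at a limma adjusted p of 0.0591. Of the lymphatic markers, Lyve1 was lower in OIR (log2 fold change -0.59, limma adjusted p = 0.0161), at 8.52, 8.03 and 6.57 RPKM in Control 1 to 3 and 5.27, 5.44 and 3.69 in OIR 1 to 3, a call that ended without Control 1 or Control 2, at 0.0671 and 0.0588. Pdpn, of the same list and also made by other cells, was higher, at 34.0, 38.5 and 36.5 RPKM in Control 1 to 3 and 50.1, 41.1 and 61.2 in OIR 1 to 3 (log2 fold change 0.46, limma adjusted p = 0.0446). The call of Pdpn ended when any library other than OIR 2 was left out, at 0.0676 to 0.1496, and under median-of-ratios scaling, at 0.0561. Pf4, Itgb3, Clec1b, Gp5, P2ry12, Tmem119, the leukocyte genes, Vtn, Acta2, Tagln and Myh11 were named after their values were seen. The part of these cells in the changes of the members was not tested.

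**Figure D5:**
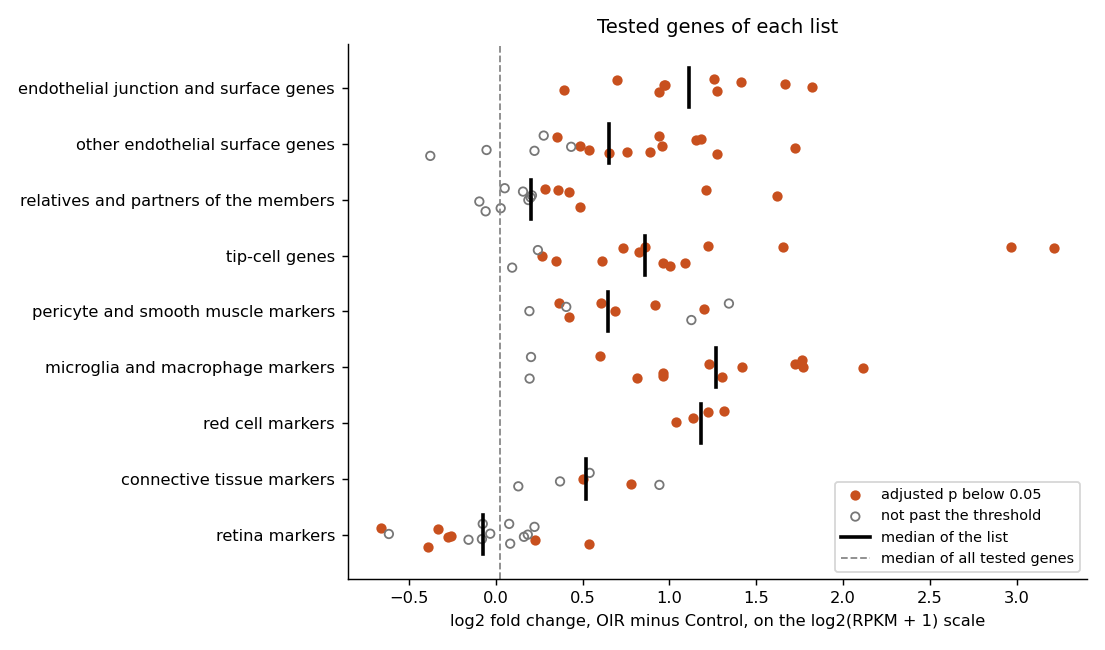
Log2 fold change, OIR minus Control (x axis), of the tested genes of 9 lists, with genes past the threshold filled, the list median as a black bar and the median of all tested genes dashed. The 10 endothelial junction and surface genes run from 0.39 to 1.82, all filled, while the relatives and partners centre on 0.20.

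For each member, the genes outside the group with the most similar profile over the 6 libraries were sought, by the root-mean-square (RMS) difference between log2(RPKM + 1) values centred on each gene's own mean. The closest to Cdh5 were the collagen gene Col5a3, at an RMS of 0.0505, and Lcp1, the gene of a leukocyte actin-bundling protein, at 0.0571, and the same 2 genes were closest to Vwf, at 0.0801 and 0.0698. For Emcn they were Adgrl4, an endothelial adhesion receptor, at 0.0324, and Cx3cr1, a microglial chemokine receptor, at 0.0341. For Cd93 they were the complement gene C1qa, at 0.0691, and the macrophage gene Mpeg1, at 0.104, and for Cd34 they were Tgfbi, at 0.0857, and Laptm5, at 0.0922.

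For Pecam1 the closest were Arhgdib and Abca1 (0.0944 and 0.0954), for Esam Tmem150a and Prkd2 (0.0167 and 0.0234), for Mmrn2 Syce2 and Aspn (0.0584 and 0.0686), for Egfl7 Igfbp5 and Stab1 (0.0583 and 0.0625) and for Esm1 Rfx2 and Hsd17b2 (0.0894 and 0.145). Within the group, Cdh5 and Vwf were closest to each other, at 0.0821, and Esm1 was the farthest from its nearest member, Cd93, at 0.333. Several of these genes are markers of myeloid cells, whose summed level rose between the groups as given above. A small RMS over 6 libraries describes profiles that share the group difference, and nothing more.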

How the data were processed

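RNA sequencing of whole retina was available for 6 libraries, with 1 file per library. The deposited files hold 1 RPKM value per gene symbol, a unit read from the values, since no header names it. Per the submitters' processing notes, Bowtie2 2.0.6 and TopHat2 2.0.12 were used. Which genome build, annotation and counter lay behind the values is not given in the sources used here, and the preparation text in the labels describes another species, so library type and strand are uncertain.

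Groups and replicate numbers were taken from sample titles. Low values step by whole reads, which gave the relative depth. Transcript lengths of GENCODE M21 then gave the absolute depth, the modal value, shared by 17 of 186 usable genes with a single length. With the smallest whole length that fits, 17952 of 17953 genes above 0 gave whole reads within 0.02 of a read, which summed to 98.5% to 99.7% of the depth. Intervals and floors for single libraries cover counting error only.

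Genes were tested with limma 3.58.1 in R 4.3.3 (trend and robust options, group as the only term, 4 residual degrees of freedom, two-sided, Benjamini-Hochberg adjustment) on log2(RPKM + 1), a scale that understates changes of low genes. 4220 genes were at 0 throughout and 10061 were not tested. Ratios are of plain group means, and values with ± are mean and SD of 3 libraries. The test was tested on simulated data. Figures were drawn with matplotlib 3.10.9.

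Members and lists were chosen with earlier results of these data known. The genes named are the members, the relatives and partners, up to 3 genes with the smallest adjusted p from each other list, and the 2 most similar genes per member, leaving out unnamed gene models (Gm, Rik and LOC symbols). Lens, retina and pigment epithelium genes are given as sums or not at all, and some listed genes are not reported here by name. Alternatives were 3 other scalings, other pseudocounts and filters, the replicate number as a block, limma without its options, limma-voom, an added fold threshold, another reference gene and left-out libraries.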

Additional observations from a re-analysis of the deposited data

How the results depend on the processing

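For the 10 members, 16 alternative settings gave 160 values, of which none changed direction, 153 kept their call and 7 lost it, 6 of them for Esm1 and 1 for Esam. The other 8 members kept their call in all 16. Leaving out single libraries gave 8 to 10 members higher and 0 lower. With a log2 fold change of 1 or more in size required as well, 5 members remained called higher, and 115 of all genes were higher and 4 lower. Over all genes, single libraries left out gave 513 to 1754 higher and 212 to 1293 lower, and the lower count, 875, became 1356 with upper-quartile scaling, 529 with no filter and 1943 without Control 3 and OIR 2. Of the libraries left out, those that moved a count by over 1.5 times were Control 1 (658 higher, 265 lower), Control 2 (421 lower), OIR 1 (513 and 212) and OIR 3 (697 and 348). Against Pecam1 in place of Cdh5, 5 members rose more and 1 less, with no share over all genes given. Emcn and Mmrn2 changed sign, to 0.13 and 0.31. Cd34 against Cdh5 ranged from -0.0498 to 0.0784 over single libraries left out. Jam2 was at -0.0092 with median-of-ratios scaling, -0.013 with upper-quartile scaling, -0.0575 without Control 3 and OIR 2 and -0.0470 to 0.0673 over single libraries left out, and Gp1bb at -0.194 to 0.0283 over the latter. The cause of these shifts was not tested.

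Control and OIR libraries with the same number did not consistently deviate together: the correlations of their deviations from the group means over genes were 0.22, -0.44 and -0.41. The highest correlation between any Control and any OIR library was 0.49, for Control 3 and OIR 2, the lens-rich libraries. The part of lens content in these correlations was not tested, so they cannot settle whether libraries were paired. The numbers were not taken as pairs. With the replicate block, 9 members were higher and none lower, all genes gave 1222 higher and 809 lower, and the calls of Esm1 (adjusted p = 0.0635), Hba-a1 (0.0926), Hba-a2 (0.0667) and Hbb-bt (0.161) ended.

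In Control, Esm1 and Mmrn2 rested on few reads, 19 and 191 over 3 libraries.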

Other observations

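Some endothelial surface genes were too low to test: Myct1, an endothelial membrane protein gene, was at 0.167 ± 0.0419 RPKM in Control and 0.721 ± 0.167 in OIR and passed with no filter (limma adjusted p = 0.0135), and Procr, the gene of the endothelial protein C receptor, was at 0.0808 ± 0.00841 and 0.483 ± 0.349 RPKM and did not pass with no filter (0.107). Calcrl, of the same list and also not tested, was lower in OIR, at 1.21 ± 0.391 and 0.845 ± 0.116 RPKM. Its groups overlapped, and it did not pass with no filter (limma adjusted p = 0.258). Myct1, Procr and Calcrl were named after their values were seen.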
